A study of Mus musculus with 4 samples.

Results

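Heat shock proteins and J-domain chaperones are the protein-folding helpers of the cell, and their transcripts were compared here between the cortex of APPswe/PS1ΔE9 mice (APP) and of wild type mice (WT). Members were taken as every gene with a protein-coding transcript whose symbol starts with Hspa, Hspb, Hspd, Hspe, Hsph, Hsp90, Dnaja, Dnajb or Dnajc. The next character had to be a digit or the letter a. There were 65 such genes, with 104 protein-coding transcripts, of 15271 genes with a protein-coding transcript in the whole table. The deposited symbols mix human and mouse spelling and give some members the name of another gene, so symbols were looked up by transcript identifier in GENCODE M21. The letters of the deposited symbols alone, read with their case, find 17 of the 65 genes. Hsp90b1 has the letter b at that place, so it is no member and is described with the partner proteins.

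APP mice carry human APP with the Swedish mutation and human PS1 without exon 9, both driven by the mouse prion protein promoter, as a model of amyloid deposition in Alzheimer's disease (AD), and the labels call them APP/PS1 transgenic. WT mice were C57BL/6J. All mice were male, 12 months old, of C57BL/6 strain background according to the labels, and no treatment is named. Cortical RNA of 2 mice per genotype, freed of ribosomal RNA and sequenced by strand, gave the libraries APP.3, APP.4, WT.1 and WT.2. With 2 mice in a group, the p-values rest on a spread that edgeR shares between genes.

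Hsp70 proteins bind unfolded stretches of protein and release them with ATP, J-domain proteins (also called Hsp40) bring them their clients and start the ATP cycle, and Hsp90 finishes the folding of kinases and receptors. Hsp110 proteins exchange the nucleotide on Hsp70, and small heat shock proteins hold misfolded proteins until Hsp70 acts. Some members are made at all times, while others are induced by heat shock factor 1 when proteins misfold in the cytosol, or by the unfolded protein response when they misfold in the endoplasmic reticulum (ER). In neurons, the constitutive Hsp70 Hspa8 also strips clathrin from vesicles, and several chaperones act on amyloid β and tau.

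Library totals lay between 28525117 and 43881196 counts, and each of the 65 members had at least 10 counts over the 4 libraries. This floor was set beforehand, since the lowest total of any deposited transcript was 10. Members with fewer counts would be absent. Values are given as CPM, that is counts divided by the TMM-scaled library size and multiplied by the fixed factor of that unit, with the SD over 2 libraries, and a fold change is APP over WT on the log2 scale with its standard error (SE). The neuron markers Slc17a7 (9335 to 16801 counts) and Snap25 were present in every library, as cortex should show. Marker levels differed between the groups. Of 14 microglia markers 11 rose in APP with an FDR under 0.05 (median log2 fold change 0.94), of 9 astrocyte markers 3 (0.22) and of 8 oligodendrocyte markers 3 (0.55), while the median of 8 neuron markers was -0.095. The summed CPM of the neuron markers was 4050 and 3183 in APP and 3657 and 3645 in WT. Syt1, with 1268 and 619 CPM in APP and 724 and 706 CPM in WT, weighed heavily in this sum. Of the 8 neuron markers, 6 had a negative and 2 a positive log2 fold change, where 49% of all features were negative. In 3 both APP libraries were below both WT libraries, against 19.8% of all features, and in 0 above, against 21%. In whole cortex, fewer cells of a type and less RNA per cell cannot be told apart. Another list that moved was that of 13 immediate-early genes, which neurons switch on within minutes of firing. Their summed CPM was 314 for APP.3 and 421 for APP.4, beside 551 and 553 for the WT mice. Of these 13 genes, 13 had a negative log2 fold change, against 49% of all features. Hypothalamic markers, which should be low in cortex, summed to 8.33 and 11.9 CPM in APP and 3.23 and 3.92 CPM in WT. Of the 7 counted, 4 rose in APP with an FDR under 0.05, against 1% of all features, and the median log2 fold change was 2.74. In 6 both APP libraries were above both WT libraries, against 21% of all features. Sim1 had 29 and 34 counts in APP and 2 and 0 in WT. The part of these shifts in the chaperone values was not tested.

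No member had a significantly higher level in APP cortex. A call in the study needed a false discovery rate (FDR) under 0.05 and a change of at least 1.5-fold. By this rule edgeR's quasi-likelihood test called 0 of the 65 members, where 0.857% of all 23346 features and 1.24% of the features of protein-coding transcripts were called. DESeq2 and edgeR's exact and likelihood ratio tests also called 0 members at these cut-offs. With the FDR alone, 3 members passed, all of them lower in APP, namely Hspa5, Dnajb5 and Dnajc21. Among all features 1.16% passed the FDR alone, 0.154% lower and 1% higher in APP, and among features of protein-coding transcripts 1.67% passed, 0.21% lower. At an unadjusted p under 0.05, 9 members were lower (these 3, Hspb1, Hspa1b, Dnajb1, Dnaja4, Dnajb11 and Dnajb4) and 0 were higher, against 4.05% of all features lower and 6.75% higher.

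The direction was uneven over the whole family. Of the 65 members, 47 had a negative and 18 a positive log2 fold change, where 49% of all features and 50.7% of features of protein-coding transcripts had a negative value. The median over the members was -0.072, beside 0.0046 over all features and -0.0026 over features of protein-coding transcripts. Both APP libraries lay below both WT libraries in 27 members (41.5%), against 19.8% of all features and 22.3% of features of protein-coding transcripts, and above both in 4 members, against 21% and 21.9%. The median over the members kept its sign without each library in turn, with a range from -0.13 without APP.3 to -0.041 without APP.4.

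**Figure D1:**
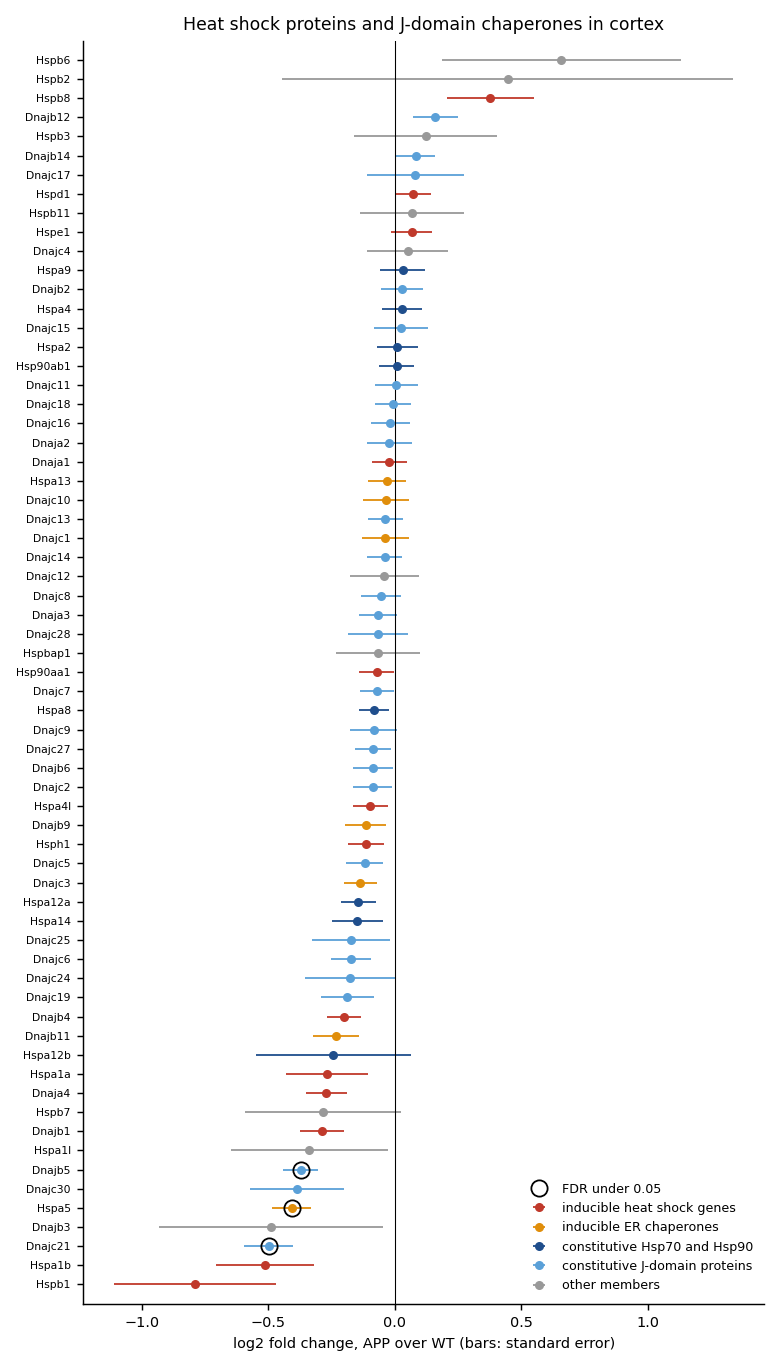
Log2 fold change of each of the 65 members, APP over WT, with its standard error as a bar, coloured by class. Black rings mark the 3 members with an FDR under 0.05, which lie on the left at -0.50, -0.41 and -0.37, and most points lie left of 0.

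The levels of the members spanned a wide range. Per kilobase of transcript, Hspa8, the main cytosolic Hsp70, was the highest member with a mean of 646 CPM per kilobase over the 4 libraries. The Hsp90 genes followed, the inducible Hsp90aa1 with 477 and the constitutive Hsp90ab1 with 304 CPM per kilobase. Hspa5, the Hsp70 of the ER also called BiP, had 85.2, Dnajc6, the auxilin that directs Hspa8 to clathrin coats, 85.1, and Dnaja1, a farnesylated J-domain protein of the cytosol, 83.1 CPM per kilobase. Hsph1, an Hsp110, had 77.7, the mitochondrial Hsp70 Hspa9 67.3, its neighbour in the matrix Hspd1 (Hsp60) 65.2 and Dnajb6, a suppressor of polyglutamine aggregation, 53.8 CPM per kilobase. The stress-inducible Hsp70 genes were far lower, with 4.29 for Hspa1a and 1.74 for Hspa1b. The lowest member was the small heat shock protein Hspb2 with 0.261 CPM per kilobase. Hspb2 was also the single member whose libraries differed by more than 2-fold within a group, with 11 and 3 counts in APP and 12 and 2 in WT. Hspa4l had no transcript length and is left out of this order.

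**Figure D2:**
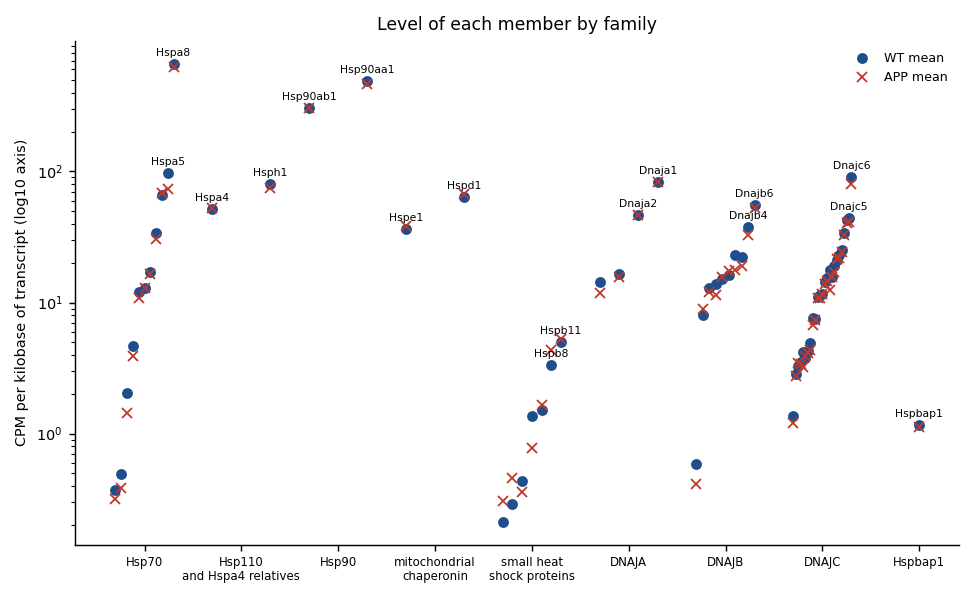
Mean CPM per kilobase of transcript (log10 axis) of 64 members in WT (points) and APP (crosses), by family. Hspa8, Hsp90aa1 and Hsp90ab1 stand above 300 CPM per kilobase, and within each family the points and crosses of a gene lie close together.

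Among the ER chaperones, Hspa5 fell. Its product BiP holds the sensors of the unfolded protein response inactive and is itself a main target of that response. Hspa5 (ENSMUSG00000026864, chromosome 2 from 34771970 to 34777547, plus strand, GRCm38) had CPM values of 252 and 284 in the APP libraries and 364 and 347 in the WT libraries. Both APP libraries lay under both WT libraries. From a WT mean of 355 ± 12.1 CPM to an APP mean of 268 ± 22.9 CPM (SD, n = 2), Hspa5 fell by 0.41 on the log2 scale (SE 0.077, adjusted p = 0.0374 by the Benjamini-Hochberg method, edgeR's quasi-likelihood test), to 75.4% of WT. The call was lost without WT.1 (adjusted p = 0.368), without WT.2 (adjusted p = 0.183) and when all transcript types were summed per gene (adjusted p = 0.0519). Tested transcript by transcript, the main Hspa5 transcript, with 7161 and 8692 counts in APP and 15827 and 12077 in WT, had an adjusted p of 0.0157.

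Of the 7 inducible ER chaperones, 7 had a negative log2 fold change, against 49% of all features, with a median of -0.11. By edgeR's quasi-likelihood test 1 passed the FDR, lower in APP, against 0.154% of all features lower and 1% higher. In 4 both APP libraries were below both WT libraries, against 19.8% of all features. Next to Hspa5 stood Dnajb11 (ERdj3), which hands clients to BiP, with 34.5 and 38.1 CPM in APP and 39.5 and 46.0 CPM in WT. The APP libraries were lower without overlap, but the difference did not pass the FDR (log2 fold change -0.23, SE 0.093, adjusted p = 0.378). It ranged from -0.34 to -0.12 with a library left out. Dnajc3 (p58IPK), an inhibitor of the ER kinase PERK, had 88.8 and 88.2 CPM in APP and 98.4 and 96.1 in WT, with a log2 fold change of -0.14. Dnajb9 (ERdj4), which represses the sensor IRE1, had a log2 fold change of -0.11 with groups that did not overlap. The J-domain proteins Dnajc1 and Dnajc10, of which Dnajc10 reduces disulfides, had values of -0.038 and -0.035, and Hspa13 one of -0.030, all with overlapping groups. Among the ER partners outside the members, the ER Hsp90 Hsp90b1 (10862 and 11773 counts in APP, 17744 and 13903 in WT) had a log2 fold change of -0.076 and Hyou1, an ER relative of Hsp110, one of -0.091. Sdf2l1, another target of the unfolded protein response, had a value of -0.26 (SE 0.16, adjusted p = 0.623). The BiP nucleotide exchange factor Sil1 had a value of 0.14. No test compared Hspa5 with these partners.

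The promoters of Hspa5 and Dnajc3 are shown because both hold the ER stress element, the letters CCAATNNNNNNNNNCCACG through which ATF6 acts, in capitals, and no other member's promoter entry does. The element was searched on both strands from 250 bases before to 50 bases after the RefSeq start (GRCm38.p6), where 39 of 32851 promoters (0.119%) hold it. The 250 bases before the start are printed.
Hspa5 (chr2:34771840-34772089, plus strand): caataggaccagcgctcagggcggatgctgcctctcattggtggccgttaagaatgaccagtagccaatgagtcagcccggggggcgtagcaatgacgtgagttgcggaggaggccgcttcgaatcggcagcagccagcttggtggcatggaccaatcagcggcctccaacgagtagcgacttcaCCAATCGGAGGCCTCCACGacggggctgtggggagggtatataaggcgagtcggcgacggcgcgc
Dnajc3 (chr14:118937682-118937931, plus strand): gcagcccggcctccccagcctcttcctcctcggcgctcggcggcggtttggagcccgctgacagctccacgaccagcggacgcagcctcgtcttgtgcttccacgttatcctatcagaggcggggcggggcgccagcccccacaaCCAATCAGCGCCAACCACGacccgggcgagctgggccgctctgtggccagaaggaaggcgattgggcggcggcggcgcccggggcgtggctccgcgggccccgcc
The element begins 65 bases before the start of Hspa5 and 105 bases before that of Dnajc3. The Hspa5 difference was -0.41 and that of Dnajc3 was -0.14 on the log2 scale, and the latter did not pass the FDR (adjusted p = 0.503).

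The heat shock genes of the cytosol, nucleus and mitochondria lay on both sides of 0. Of the 13 genes of this list, 10 had a negative and 3 a positive log2 fold change, with a median of -0.12. Among all features 49% had a negative value. In 7 of the 13 both APP libraries were below both WT libraries, against 19.8% of all features, and in 1 above, against 21%. Among the 13, 0 passed the FDR by edgeR's quasi-likelihood test and 5 had an unadjusted p under 0.05, all lower, against 4.05% of all features, and DESeq2 and edgeR's other tests likewise passed 0. Without WT.2 the median was -0.072.

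Hspa1a and Hspa1b encode the classical stress-inducible Hsp70 and lie next to each other on chromosome 17. Hspa1b had 97 and 145 counts in APP and 277 and 183 in WT, or 3.35, 4.67, 6.30 and 5.16 CPM. Its APP libraries were lower without overlap (log2 fold change -0.51, SE 0.19), yet the adjusted p was 0.344. Hspa1a had 285 and 411 counts in APP and 683 and 435 in WT, or 9.85, 13.2, 15.5 and 12.3 CPM, and the groups overlapped (log2 fold change -0.27, SE 0.16, adjusted p = 0.614). Both genes were lowest in APP.3. With a library left out, the log2 fold change ranged from -0.78 to -0.31 for Hspa1b and from -0.50 to -0.082 for Hspa1a. The size of both values thus rests on which mouse is kept. Their transcripts are 99.14% identical over 2200 bases, and how reads were shared between them is uncertain. Summed, they had 382 and 556 counts in APP and 960 and 618 in WT, with a log2 fold change of -0.34 (SE 0.15, adjusted p = 0.462).

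Dnajb1 (Hdj1), the inducible partner of Hspa1a, had 32.0 and 36.4 CPM in APP and 43.5 and 40.1 CPM in WT, without overlap (log2 fold change -0.29, SE 0.087, adjusted p = 0.215). Its value ranged from -0.38 to -0.21 with a library left out. Dnaja4, a farnesylated J-domain protein, had 35.1 and 35.9 CPM in APP and 40.2 and 45.4 CPM in WT (log2 fold change -0.27, SE 0.083, adjusted p = 0.22). For Dnajb4 the libraries of each group were almost equal, 64.6 and 64.0 CPM in APP and 74.1 and 73.6 CPM in WT (log2 fold change -0.20, SE 0.067, adjusted p = 0.279). In these 3 J-domain genes every APP value was lower than every WT value, but the FDR was not passed. The small heat shock protein Hspb1 (Hsp27) had 22 and 20 counts in APP and 49 and 47 in WT, and at this depth its log2 fold change of -0.79 (SE 0.32) had an adjusted p of 0.393.

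The abundant inducible genes had values nearer to 0. Hsp90aa1 had 1402 and 1257 CPM in APP and 1380 and 1414 in WT, groups that overlapped (log2 fold change -0.072, SE 0.069). Without APP.3 the log2 fold change of Hsp90aa1 was -0.16, and without APP.4 it was 0.005. Hsph1 had 235 and 248 CPM in APP and 252 and 272 in WT (-0.12), and Hspa4l, another Hsp110, had 334 and 312 in APP and 339 and 351 in WT (-0.096). In both Hsp110 genes the APP libraries lay below the WT libraries by small margins. Dnaja1 had overlapping groups and a log2 fold change of -0.022.

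The 3 heat shock genes with positive values were the mitochondrial chaperonin pair Hspd1 (Hsp60) and Hspe1 (Hsp10), and Hspb8. Hspd1 had a log2 fold change of 0.073 (SE 0.070) and Hspe1 one of 0.066 (SE 0.082), with overlapping groups in both. Hspb8, which works with Bag3 in selective autophagy, had 193 and 286 counts in APP and 282 and 206 in WT, or 6.67, 9.22, 6.41 and 5.81 CPM. Its APP libraries were both above the WT libraries (log2 fold change 0.38, SE 0.17, adjusted p = 0.47), by much in APP.4 and little in APP.3. Without APP.3 the log2 fold change of Hspb8 was 0.58, and without APP.4 it was 0.12.

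**Figure D3:**
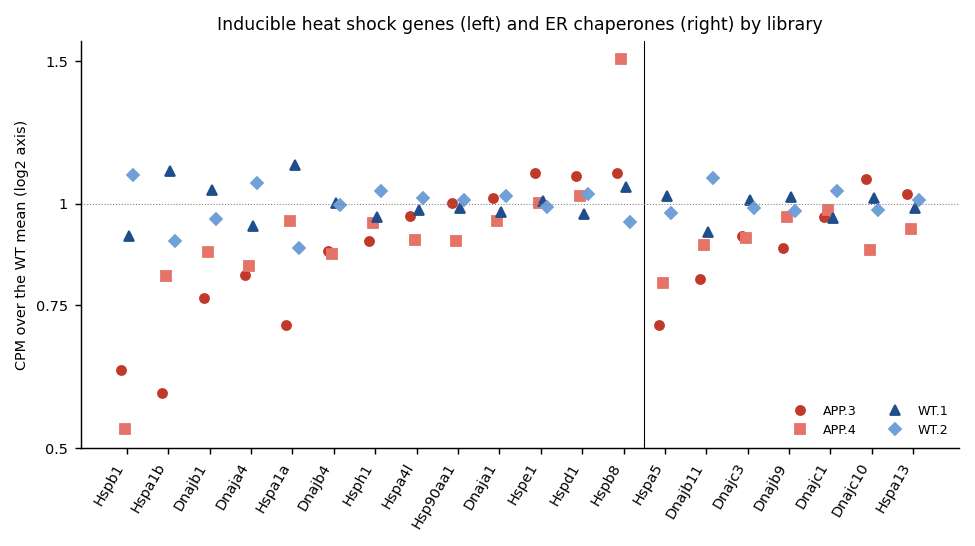
CPM of each library divided by the WT mean (log2 axis) for the 13 inducible heat shock genes (left of the line) and the 7 inducible ER chaperones (right). APP points (circles and squares) lie under both WT points (triangles and diamonds) in 7 of 13 and 4 of 7 genes, with Hspb1, Hspa1b and Hspa5 lowest, and above them in Hspb8.

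Heat shock elements are runs of the unit GAA and its complement TTC to which heat shock factor 1 binds. The pattern of 2 units (GAANNTTC or TTCNNGAA, both strands) was found in 17 of the 70 promoter entries that 53 members have, and in 15.1% of all 32851 promoters. The pattern of 3 units (GAANNTTCNNGAA or TTCNNGAANNTTC, which contains the pattern of 2) was found in 6 of the 70 entries, those of Dnajb6, Hspd1, Hspe1 and Hsph1, and in 0.603% of all promoters. The promoters below hold the pattern of 2 units, in capitals, and are shown for the near-identical stress-inducible Hsp70 genes, for Hspb1, which had the most negative value of the list, and for Hspe1, which holds the pattern of 3 units.
Hspa1a (chr17:34972157-34972406, minus strand): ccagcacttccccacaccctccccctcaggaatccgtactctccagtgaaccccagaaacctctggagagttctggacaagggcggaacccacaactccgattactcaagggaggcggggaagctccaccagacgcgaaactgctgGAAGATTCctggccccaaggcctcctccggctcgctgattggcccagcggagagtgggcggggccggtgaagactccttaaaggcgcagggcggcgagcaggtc
Hspa1b (chr17:34959239-34959488, minus strand): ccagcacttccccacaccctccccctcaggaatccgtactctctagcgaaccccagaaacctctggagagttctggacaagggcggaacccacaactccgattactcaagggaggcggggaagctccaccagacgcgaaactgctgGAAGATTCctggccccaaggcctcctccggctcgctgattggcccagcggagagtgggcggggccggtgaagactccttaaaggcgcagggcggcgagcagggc
Hspb1 (chr5:135887669-135887918, plus strand): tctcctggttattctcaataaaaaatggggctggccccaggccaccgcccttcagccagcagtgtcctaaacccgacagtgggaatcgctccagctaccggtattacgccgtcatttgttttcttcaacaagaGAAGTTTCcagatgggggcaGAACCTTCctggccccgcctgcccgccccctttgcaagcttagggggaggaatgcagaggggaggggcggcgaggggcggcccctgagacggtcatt
Hspe1 (chr1:55087898-55088147, plus strand): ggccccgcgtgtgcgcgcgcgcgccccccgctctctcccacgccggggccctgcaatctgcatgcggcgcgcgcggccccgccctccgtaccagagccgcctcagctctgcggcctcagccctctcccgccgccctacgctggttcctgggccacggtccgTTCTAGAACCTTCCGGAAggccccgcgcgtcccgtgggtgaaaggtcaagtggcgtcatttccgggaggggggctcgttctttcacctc
The stretches of Hspa1a and Hspa1b differ in 3 of 250 bases and hold the same pattern 104 bases before the start. In the Hspe1 stretch the patterns overlap in a single run, which also lies in the promoter of Hspd1 on the opposite strand. These are matches of letters and are no measure of binding. Hspa8, Hspa4l and 10 other members had no entry.

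Dnajb5 and Dnajc21 were the other members that fell, and both belong to the J-domain proteins made without stress. Dnajb5 (ENSMUSG00000036052, chromosome 4 from 42949814 to 42959425, plus strand, GRCm38), which in heart muscle keeps HDAC4 under redox control, had 58.1 and 59.0 CPM in APP and 74.4 and 77.2 CPM in WT. The values within each group were close and the groups were apart. From 75.8 ± 2.03 CPM in WT to 58.5 ± 0.602 in APP (SD, n = 2), it fell by 0.37 on the log2 scale (SE 0.069, adjusted p = 0.0326, edgeR's quasi-likelihood test). The adjusted p was 0.165 without WT.1, 0.334 without WT.2 and 0.0669 with all transcript types summed. Its main transcript had 1535 and 1639 counts in APP and 2958 and 2470 in WT (adjusted p = 0.0269 transcript by transcript). A further transcript of Dnajb5 that is not protein coding had 190 and 382 counts in APP and 511 and 350 in WT, with overlapping groups.

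Dnajc21 (ENSMUSG00000044224, chromosome 15 from 10446756 to 10470516, minus strand, GRCm38) acts in the maturation of the large ribosomal subunit. It had 28.1 and 23.5 CPM in APP and 35.3 and 37.6 CPM in WT, again without overlap. Its mean went from 36.4 ± 1.68 CPM in WT to 25.8 ± 3.29 in APP (SD, n = 2), or 70.7% of WT, and it fell by 0.50 on the log2 scale (SE 0.097, adjusted p = 0.0415, edgeR's quasi-likelihood test). It kept its call with all transcript types summed, but not without WT.2 or with library totals in place of TMM (adjusted p = 0.0517). Its transcripts that are not protein coding, tested together, had a log2 fold change of -0.44 at an unadjusted p under 0.05 (edgeR's quasi-likelihood test). Of the 31 members with such transcripts, 0 passed the FDR for them by this test, and 0 by the other tests. The 2 at an unadjusted p under 0.05 went opposite ways, Dnajc21 lower and Dnajc24 higher (1.73). Among all features 4.05% were lower and 6.75% higher at this threshold. The promoters of both genes are shown because these genes fell. Neither holds the pattern of 2 heat shock units or the ER stress element, so no letters are in capitals.
Dnajb5 (chr4:42949617-42949866, plus strand): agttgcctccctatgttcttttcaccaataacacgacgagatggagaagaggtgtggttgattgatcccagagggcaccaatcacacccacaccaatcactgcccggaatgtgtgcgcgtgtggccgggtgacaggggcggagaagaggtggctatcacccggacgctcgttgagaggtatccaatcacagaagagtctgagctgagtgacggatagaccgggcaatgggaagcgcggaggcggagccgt
Dnajc21 (chr15:10470517-10470766, minus strand): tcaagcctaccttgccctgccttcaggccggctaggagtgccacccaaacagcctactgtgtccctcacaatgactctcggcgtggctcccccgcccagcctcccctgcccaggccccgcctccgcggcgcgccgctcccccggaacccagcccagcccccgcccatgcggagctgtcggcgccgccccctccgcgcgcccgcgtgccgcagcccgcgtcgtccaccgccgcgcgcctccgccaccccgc

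**Figure D4:**
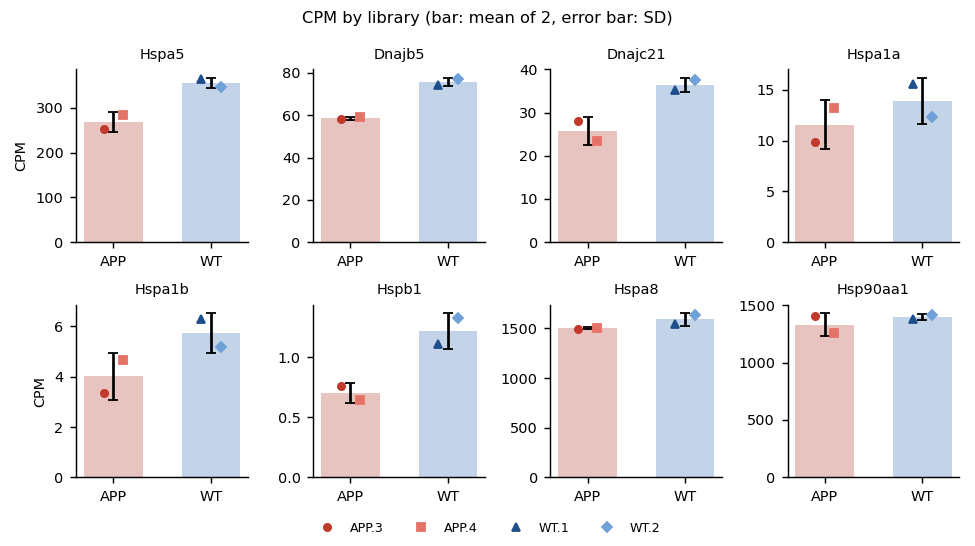
CPM of 8 members in each library (symbols), with the mean of each group as a bar from 0 and the SD over 2 libraries as an error bar. APP and WT symbols are apart in Hspa5, Dnajb5, Dnajc21, Hspa1b, Hspb1 and Hspa8, and overlap in Hspa1a and Hsp90aa1.

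With these 2 included, the list of 27 constitutive J-domain proteins had a median of -0.066, with 21 negative and 6 positive values. Among all features 49% were negative. In 12 of the 27 both APP libraries were below both WT libraries, against 19.8% of all features, and in 1 above, against 21%. Dnajc6 (auxilin) had 446 and 388 CPM in APP and 465 and 477 CPM in WT (-0.17, adjusted p = 0.464), and Dnajc5, the cysteine string protein that keeps the synaptic SNARE protein SNAP25 folded, had 280 and 257 CPM in APP and 285 and 299 in WT (-0.12, adjusted p = 0.619). Both synaptic genes were lower without overlap. With a library left out, the value ranged from -0.28 to -0.078 for Dnajc6 and from -0.19 to -0.057 for Dnajc5. Dnajc30, a mitochondrial member, had 6.40 and 4.32 CPM in APP and 7.09 and 6.88 CPM in WT (-0.39, SE 0.19, adjusted p = 0.501). Its value ranged from -0.70 to -0.13 with a library left out. Dnajb12, a J-domain protein of the ER membrane, had both APP libraries above both WT libraries, at 20.4 and 21.5 CPM against 19.3 and 18.3 (0.16, adjusted p = 0.576). Dnajb6 had a value of -0.085 and Dnaja2 one of -0.021, with overlapping groups.

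The constitutive Hsp70 and Hsp90 genes lay on both sides of 0. Of these 8 genes, 4 had a negative and 4 a positive value, the median was -0.037, and by edgeR's quasi-likelihood test 0 passed the FDR or an unadjusted p under 0.05. The other tests also passed 0. Hspa8 had 1497 and 1508 CPM in APP and 1544 and 1637 in WT, which do not overlap (log2 fold change -0.082, SE 0.061, adjusted p = 0.703). Its counts are uncertain, since the similar gene Gm15459, 99.74% identical over 1941 bases, took a further 7251 and 7671 counts in APP and 11314 and 9430 in WT. Summed with them, Hspa8 had a log2 fold change of -0.081 (SE 0.060). Hsp90ab1 had a value of 0.0077 (SE 0.069), Hspa9 one of 0.032, Hspa4 one of 0.028 and the testis and brain member Hspa2 one of 0.010, all with overlapping groups. The divergent Hsp70 Hspa12a had 180 and 169 CPM in APP and 192 and 194 CPM in WT (-0.14, SE 0.068, adjusted p = 0.49). Its value ranged from -0.20 to -0.10 with a library left out. Hspa14, of which a part is shared with Gm45902, had a value of -0.15, and Hspa12b, with 27 to 50 counts per library, one of -0.24.

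To set inducible genes against their constitutive relatives independently of library size, the log2 ratio of their counts was taken within each library for 8 pairs. With 2 libraries against 2, the exact two-sided permutation test cannot give a p below 0.333, or 0.667 after adjustment over the 8 pairs, so no pair could pass. The largest difference was in Hspa5 over Hspa8, with a ratio of 0.168 and 0.188 in APP and 0.236 and 0.212 in WT. The groups did not overlap (difference -0.33 on the log2 scale, exact p = 0.333). For Hspa1a and Hspa1b together over Hspa8, the ratio was 0.00882 and 0.0119 in APP and 0.0141 and 0.0106 in WT. These overlapped (difference -0.26, exact p = 0.667), and the difference was -0.046 without APP.3. Dnajb1 over Dnajb6 gave 0.239 and 0.310 in APP and 0.334 and 0.293 in WT (difference -0.20, exact p = 0.667), and -0.013 without APP.3. Hsp90aa1 over Hsp90ab1 was 1.75 and 1.72 in APP and 1.83 in both WT libraries, a difference of -0.080 without overlap (exact p = 0.333). Hspa4l over Hspa4 differed by -0.12 without overlap (exact p = 0.333) and Hsph1 over Hspa4 by -0.14 with overlap (exact p = 0.667), or by -0.0058 without APP.3. Dnaja1 over Dnaja2 differed by 0.0042 (exact p = 1). In Dnajb4 over Dnajb5 the sign was positive (0.17, exact p = 0.333), and there the constitutive gene is the one that fell.

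**Figure D5:**
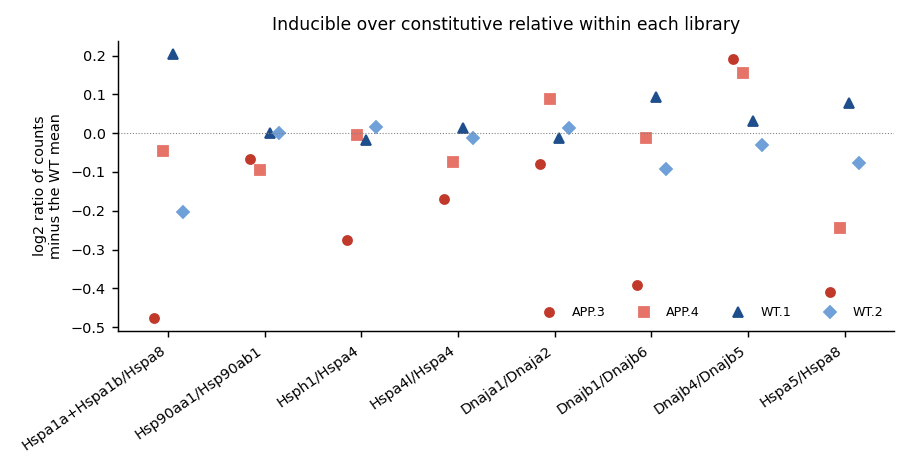
Log2 ratio of an inducible gene to its constitutive relative within each library, minus the WT mean, for 8 pairs. APP symbols lie below both WT symbols in 3 pairs (Hsp90aa1/Hsp90ab1, Hspa4l/Hspa4 and Hspa5/Hspa8) and above them in Dnajb4/Dnajb5.

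By median, the inducible heat shock genes (-0.12) and ER chaperones (-0.11) were lower than the 35 constitutive members (-0.066), and no test of this difference was made. The small heat shock proteins, which were low in these libraries, had mostly positive values. Of 10 genes in that list 8 were counted, Cryab of them outside the members, with 6 positive and 2 negative values and a median of 0.099. Hspb6 had 23 and 14 counts in APP and 16 and 15 in WT, and Cryab, the αB-crystallin of oligodendrocytes and astrocytes, had 435 and 537 counts in APP and 657 and 560 in WT with a log2 fold change of 0.075. The remaining members in no class were at low levels. Hspa1l, near Hspa1a and Hspa1b, had 33 and 24 counts in APP and 54 and 42 in WT (-0.34, adjusted p = 0.782). Dnajc4 had 4.15 and 4.22 CPM in APP and 4.05 and 4.03 CPM in WT (0.051), a difference smaller than its SE of 0.16.

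The regulators and partners of the members showed no call. Of 42 heat shock factors and cochaperones, by edgeR's quasi-likelihood test 0 passed the FDR, against 1.16% of all features. An unadjusted p under 0.05 was found in 2, both lower, against 4.05% of all features lower. DESeq2 and the other edgeR tests passed 0 by the FDR. There were 28 negative and 14 positive values with a median of -0.038, where 49% of all features had a negative value. Heat shock factor 1 itself, Hsf1, had 232 and 286 counts in APP and 369 and 281 in WT (log2 fold change 0.079, SE 0.14), and Hsf2 had a value of -0.071. Among the largest negative values were those of Hsf4 (-0.38, SE 0.20), Sdf2l1, the Hsp90 activator relative Ahsa2 (-0.21) and the mitochondrial exchange factor Grpel2 (-0.18). The largest positive values were those of Hscb, a J-domain protein of iron-sulfur cluster assembly (0.26), Sil1, the Hsp90 cochaperones Fkbp5 (0.12) and Ppid (0.12), and Hsf1. The 8 subunits of the cytosolic chaperonin TRiC, which folds actin and tubulin, had a median of 0.012, and 0 passed the FDR or an unadjusted p under 0.05 by edgeR's quasi-likelihood test, and 0 passed the FDR by the other tests.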

How the data were processed

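Count data of whole cortex RNA from 2 APP and 2 WT mice were used. The authors removed read pairs of ribosomal RNA, used FANSe2 to align the others to Ensembl mouse RNA (release not given in the sources used here), allowing mismatches, and deposited raw read counts per transcript. The submitters' processing notes also name CASAVA 1.8, edgeR and hg19, a human build. Left out were 4 other columns with per-library values and the columns of the authors' own comparison (fold change, log2 CPM, p-value and FDR).

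Of 37539 transcripts, 98.2% were matched by identifier to GENCODE M21 (GRCm38), and 388 others were named by the deposited symbol. Per gene, protein-coding transcripts were summed as a feature and other transcripts as a separate one, which gave 23346 features, 0 of them under 10 counts over the 4 libraries. The comparison used edgeR 4.0.16 in R 4.3.3 (quasi-likelihood test, TMM, no covariate, Benjamini-Hochberg adjustment over all features), with limma 3.58.1, DESeq2 1.42.0, and Python 3.11.15 with pandas 2.3.3, numpy 2.4.6 and scipy 1.17.1. In simulated counts of this comparison (23324 genes), changes were placed only in protein-coding genes with a mean over 1 CPM. By the FDR alone, the test passed 84% of 2-fold and 99% of 4-fold changes, and 26 unchanged genes. Changes under 2-fold were not simulated. Every member's change was of that size (log2 fold changes from -0.79 to 0.66), so these shares do not apply to the members. The SE is the log2 fold change over the root of the F statistic. Similar transcripts (at least 90% identity over at least 300 bases) were found with blastn 2.17.0, and promoter sequences are from RefSeq. WT columns could be tied to a mouse by their number, APP columns to the group alone.

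Library totals lay between 28525117 and 43881196 counts. Reads carry no molecular identifiers, so counts are not independent molecules. Members and gene lists, and which genes are named, were chosen with earlier results of these data known. Named are members called, the inducible lists, constitutive Hsp70 and Hsp90, the 10 largest changes in each direction with groups apart and a mean over 1 CPM, the 10 highest per kilobase, members with over 2-fold differences within a group, the 5 largest changes in each direction among cochaperones, and genes whose promoters are shown. A further gene of this rule is not reported here. Genes named outside this rule, such as Hyou1, Hsp90b1, Cryab and Hspb6, were chosen after their values were seen. The alternatives tried were the exact and likelihood ratio tests of edgeR, DESeq2, no TMM, at least 10 counts in every library, all transcript types summed per gene, and leaving out each library. Separate tests of transcripts and sums of similar genes were chosen after seeing the data.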

Additional observations from a re-analysis of the deposited data

How the results depend on the processing

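The 3 members with an FDR under 0.05 were the same by the likelihood ratio and exact tests of edgeR, by DESeq2, with at least 10 counts in every library and transcripts tested separately, while library totals without TMM left Dnajb5 and Hspa5, and all transcript types summed per gene left 1, Dnajc21. Leaving out a library moved the counts most. Between 0 and 9 members then passed the FDR, 0 without WT.2, 1 without WT.1 (Dnajc21), 7 without APP.4 (all lower) and 9 without APP.3 (8 lower), and between 0 and 2 passed both cut-offs, Dnajc21 and Dnajc30 without APP.3 and Hspa1b without APP.4. All features with an FDR under 0.05 numbered 270, 622 with the likelihood ratio test, 570 with the exact test, and between 192 and 1769 without a library. A lone library of a group is then assumed to vary like the pair left in the other group. The count over all features was highest without APP.3, where the most members passed, and lowest without WT.1. Whether the family moved more than other features with a library left out was not tested. Medians ranged from -0.15 to -0.072 in heat shock genes, from -0.13 to -0.036 in constitutive members and from -0.13 to -0.041 over all members, and all kept their sign, while Dnaja1 over Dnaja2 ranged from -0.079 to 0.088. With all transcript types summed, 1 member changed sign, Hspb11, to -0.10. With a library left out, 30 did, though not one had passed the FDR, and their log2 fold changes ranged as follows: Dnaja1 (-0.076 to 0.024), Dnaja2 (-0.16 to 0.10), Dnajb14 (-0.027 to 0.18), Dnajb2 (-0.018 to 0.072), Dnajb6 (-0.19 to 0.0082), Dnajc1 (-0.096 to 0.017), Dnajc10 (-0.19 to 0.10), Dnajc11 (-0.10 to 0.10), Dnajc12 (-0.14 to 0.052), Dnajc13 (-0.083 to 0.0006), Dnajc15 (-0.055 to 0.11), Dnajc16 (-0.077 to 0.042), Dnajc17 (-0.13 to 0.26), Dnajc18 (-0.064 to 0.042), Dnajc24 (-0.39 to 0.047), Dnajc28 (-0.23 to 0.076), Dnajc8 (-0.15 to 0.031), Hsp90aa1 (-0.16 to 0.005), Hsp90ab1 (-0.065 to 0.071), Hspa12b (-0.55 to 0.015), Hspa13 (-0.11 to 0.040), Hspa2 (-0.060 to 0.073), Hspa4 (-0.078 to 0.12), Hspa9 (-0.11 to 0.16), Hspb11 (-0.10 to 0.26), Hspb2 (-0.82 to 1.99), Hspb3 (-0.12 to 0.33), Hspb7 (-0.52 to 0.015), Hspbap1 (-0.23 to 0.078), Hspe1 (-0.0035 to 0.13). The cause of these shifts was not tested. Summing Hspa1a with Hspa1b, or Hspa8 with Gm15459, changed no sign or call. No paired analysis was possible because the APP columns carry the numbers 3 and 4 and the WT columns 1 and 2, so the groups share no replicate number, and the planned replicate block was not run. Depth limits the members with few counts, such as Hspb1, Hspb2, Hspb6 and Hspa1l.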

Other observations

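Transcripts of Dnajc24 that are not protein coding had 7 and 16 counts in APP and 6 and 3 in WT, with a log2 fold change of 1.73 (SE 0.72, adjusted p = 0.412, edgeR's quasi-likelihood test), while its protein-coding transcript had one of -0.18. The other transcripts of Hspa8 had 154 and 203 counts in APP and 307 and 273 in WT, with a log2 fold change of -0.30 (SE 0.16, adjusted p = 0.535).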
